A study of Mus musculus with 28 samples.

Results

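Macrophage and leukocyte genes were examined in TA muscle (tibialis anterior, a muscle of the lower hind limb) of 28 mice. The set holds 41 genes that mark leukocytes, chosen by name, out of the 55359 gene identifiers shared by both tables of raw counts. By role, they comprise 5 pan-leukocyte genes, 13 genes of the myeloid lineage and its lysosomes, 3 genes of resident or alternatively activated macrophages, 5 genes of Fc receptors and ITAM adaptors, 3 complement C1q genes, 5 genes of chemokines and chemokine receptors, 2 genes of lipid-associated macrophages and 5 genes of T and NK cells. The study asked how tamoxifen, an estrogen receptor ligand given in the diet, changes muscle in mouse models of centronuclear myopathy. The mice belong to 7 groups of 4. In the Dnm2 cohort, WT mice and Dnm2 S619L/+ mice, heterozygous carriers of a point mutation of the GTPase dynamin 2 present in every cell, each received placebo or tamoxifen. In the Bin1 cohort, Bin1 mck-/- mice, which lack the membrane-curving protein amphiphysin 2 in muscle because the deletion is driven by the muscle creatine kinase promoter, received placebo or tamoxifen, and WT mice received placebo only. All were C57BL/6N mice whose muscles were collected at 8 weeks. The cohorts were made into libraries with different amounts of RNA and times of fragmentation, so mouse model and library protocol cannot be told apart and comparisons were made within a cohort.

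CD45-positive cells reach muscle from the bone marrow or persist there from embryonic life. Macrophages are the main leukocytes of resting muscle: they live on the growth factor CSF-1 through its receptor, recognize antibody-coated and dying cells with Fc receptors and complement C1q, and digest what they take up in lysosomes. Circulating monocytes follow CCL2 through the receptor CCR2 into injured muscle and turn into macrophages there. T and NK cells are rare in healthy muscle. Osteoclasts, the bone-resorbing cells, descend from the same precursors and share the CSF-1 receptor and many lysosomal genes with macrophages.

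Values are given as CPM, the counts of a gene scaled to the depth of its library with the TMM method of edgeR. Tests are those of edgeR's quasi-likelihood fit of all mice of a cohort, with Benjamini-Hochberg adjustment over all genes and a threshold of 0.05. Where a standard error of a fold change is given, it was derived from the fold change and the F statistic of its test. Reads assigned to genes numbered 15.6 to 109.7 M per mouse in the Dnm2 cohort (median 28.8 M) and 24.7 to 35.1 M in the Bin1 cohort (median 30.6 M). The labels held for the deleted gene: *Bin1* had 521 to 556 CPM in WT mice of the Bin1 cohort, 51.6 to 62.1 in placebo and 36.1 to 49.5 in tamoxifen Bin1 mck-/- mice, and *Dnm2* did not differ by the test between any of the groups compared (61 to 64.4 CPM in WT and 62 to 72.4 in Dnm2 S619L/+ placebo mice, where the mutation itself is not visible in counts). Skeletal muscle markers were present throughout, with 10 muscle fiber genes summing to between 88615 and 199200 CPM per mouse. Of the 41 members, 37 passed the filter on low counts in each cohort, and *Cd3e*, *Cd3g*, *Cd8a* and *Nkg7* were too low to be tested.

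Per kilobase of exon, most macrophage genes were above the T and NK cell genes in placebo WT mice. In placebo WT mice of the Dnm2 cohort, the lysozyme gene *Lyz2* came first (28.4 CPM per kilobase, group mean), followed by *C1qb* (11.1), *C1qa* (10.1), *C1qc* (4.71) and the protease gene *Ctss* (4.17). The lowest members there were the lymphocyte genes *Cd8a* (0.00516 CPM per kilobase), *Cd3e* (0.0118), *Nkg7* (0.0172) and *Cd3g* (0.0186). *Cd4* (0.113) was above the macrophage genes *Trem2* (0.071) and *Cx3cr1* (0.0424) in these mice. In tamoxifen WT mice *Cd4* had 1.88 CPM per kilobase, above *Cd163* (1.81). *Lyz2* had the highest level of the set in each of the 7 groups, and reads of its close copy *Lyz1* can be shared with it. Reads of the Fc receptor genes and of *Ccl6* and *Ccl9* can be shared within their families. *Itgam* shares 3450 of its 5024 exon bases with the gene model *Gm49368* on the same strand, so its counts are uncertain. *Csf1r*, *Cd52*, *Coro1a*, *Fcgr2b*, *Cx3cr1* and *Cd3e* overlap exons of another gene on the opposite strand, and the strand setting of the read counting is not given in the sources used here.

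Several members carry the same letters upstream of the transcript start. *Spi1*, itself a member, encodes PU.1, the ETS-family transcription factor of the myeloid lineage, whose binding sites contain a purine-rich GAGGAAG sequence. These letters were searched on both strands in the RefSeq promoter windows of assembly GRCm38.p6, which run from 250 bases before to 50 bases after a transcript start and were found for 30 of the 41 members. They occurred in 10 of 33 member windows (30.3%, from 9 genes) against 13.6% of all 32851 windows, as a description with no test. The longer letters GAGGAAGT, which contain both GAGGAAG and GGAAGT, occurred in 9.09% of member windows against 3.2%, and the shorter GGAAGT in 48.5% against 23.8%. The 60 bases before the start are shown for the 5 genes in which a match lies wholly there (for *Fcgr3*, 1 of its 2 windows), with the match (CTTCCTC, the reverse complement of GAGGAAG) in capitals:
*Laptm5*: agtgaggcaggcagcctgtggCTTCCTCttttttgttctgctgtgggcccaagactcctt
*Fcgr1*: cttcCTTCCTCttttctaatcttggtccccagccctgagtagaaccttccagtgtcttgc
*Trem2*: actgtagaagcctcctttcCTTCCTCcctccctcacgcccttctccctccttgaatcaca
*Mrc1*: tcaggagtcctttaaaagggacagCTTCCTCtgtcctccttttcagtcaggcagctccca
*Fcgr3*: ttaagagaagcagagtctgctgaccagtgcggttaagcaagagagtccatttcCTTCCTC
They lie at chr4:130913256-130913315 (plus strand), chr3:96293970-96294029 (minus strand), chr17:48346341-48346400 (plus strand), chr2:14229354-14229413 (plus strand) and chr1:171059404-171059463 (minus strand) of GRCm38.p6, and are written 5′ to 3′ in the direction of transcription. The first base of the match is 39 bases before the start in *Laptm5*, 41 in *Trem2*, 36 in *Mrc1* and 56 in *Fcgr1*, and in *Fcgr3* the match directly precedes the start. *Laptm5*, *Trem2* and *Fcgr3* are among the genes that rose with tamoxifen in WT mice below, whereas *Mrc1* and *Fcgr1* did not pass that test.

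*Ptprc* encodes CD45, the phosphatase carried by all leukocytes. In mice 1 to 4 of the Dnm2 cohort it had 4.16, 3.68, 1.9 and 3.71 CPM in placebo WT, 9.85, 9.54, 6.97 and 5.66 in tamoxifen WT, 6.56, 3.12, 3.44 and 39.9 in placebo Dnm2 S619L/+ and 7.51, 10.2, 8.18 and 3.06 in tamoxifen Dnm2 S619L/+ mice. In the Bin1 cohort it had 1.54, 1.77, 1.63 and 1.45 CPM in WT mice 5 to 8, 4.23, 7.69, 5.06 and 8.39 in placebo Bin1 mck-/- and 3.83, 4.34, 1.82 and 1.75 in tamoxifen Bin1 mck-/- mice 1 to 4. All 4 tamoxifen WT mice were thus above all 4 placebo WT mice, all placebo Bin1 mck-/- mice were above their WT mice, and placebo Dnm2 S619L/+ mouse 4 was far above every other mouse, while 2 of its group lay within the WT range. *Adgre1*, which encodes the macrophage surface protein F4/80, had 3.27, 3, 1.26 and 2.55 CPM in placebo WT, 9.89, 10.3, 7.16 and 6.08 in tamoxifen WT, 6.06, 4.22, 2.54 and 13 in placebo and 10.7, 10.4, 8.14 and 2.84 in tamoxifen Dnm2 S619L/+ mice. In the Bin1 cohort it had 2.18, 1.81, 2.21 and 0.904 CPM in WT, 6.87, 8.4, 5.73 and 11.1 in placebo and 5.88, 5.22, 1.86 and 2.27 in tamoxifen Bin1 mck-/- mice. Here, too, placebo Bin1 mck-/- mice lay apart from WT, and tamoxifen Bin1 mck-/- mice 3 and 4 were back at or near WT level while mice 1 and 2 were not.

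*Csf1r*, the receptor for CSF-1 on which macrophages and osteoclasts depend, had 17, 15.6, 11.5 and 10 CPM in placebo WT, 70.2, 92.2, 32.7 and 45.3 in tamoxifen WT, 28.8, 23.4, 12.9 and 35.5 in placebo and 42.7, 48.1, 61.3 and 17.9 in tamoxifen Dnm2 S619L/+ mice. Its values in the Bin1 cohort were 12.9, 11.2, 10.3 and 8.01 CPM in WT, 27.4, 35, 23.8 and 49.9 in placebo and 23.8, 26.4, 8.07 and 8.88 in tamoxifen Bin1 mck-/- mice. The highest *Csf1r* levels of the Dnm2 cohort were therefore in tamoxifen mice and not in placebo Dnm2 S619L/+ mouse 4. *Cd3e*, the signalling chain of the T cell receptor, was close to its detection limit. Placebo Dnm2 S619L/+ mice had 0.135, 0.096, 0.0453 and 3.88 CPM, where mouse 4 had 98 reads. The reads of every other mouse of the study numbered 0 to 9, and the CPM did not exceed 0.15 in the other 6 groups.

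**Figure D1:**
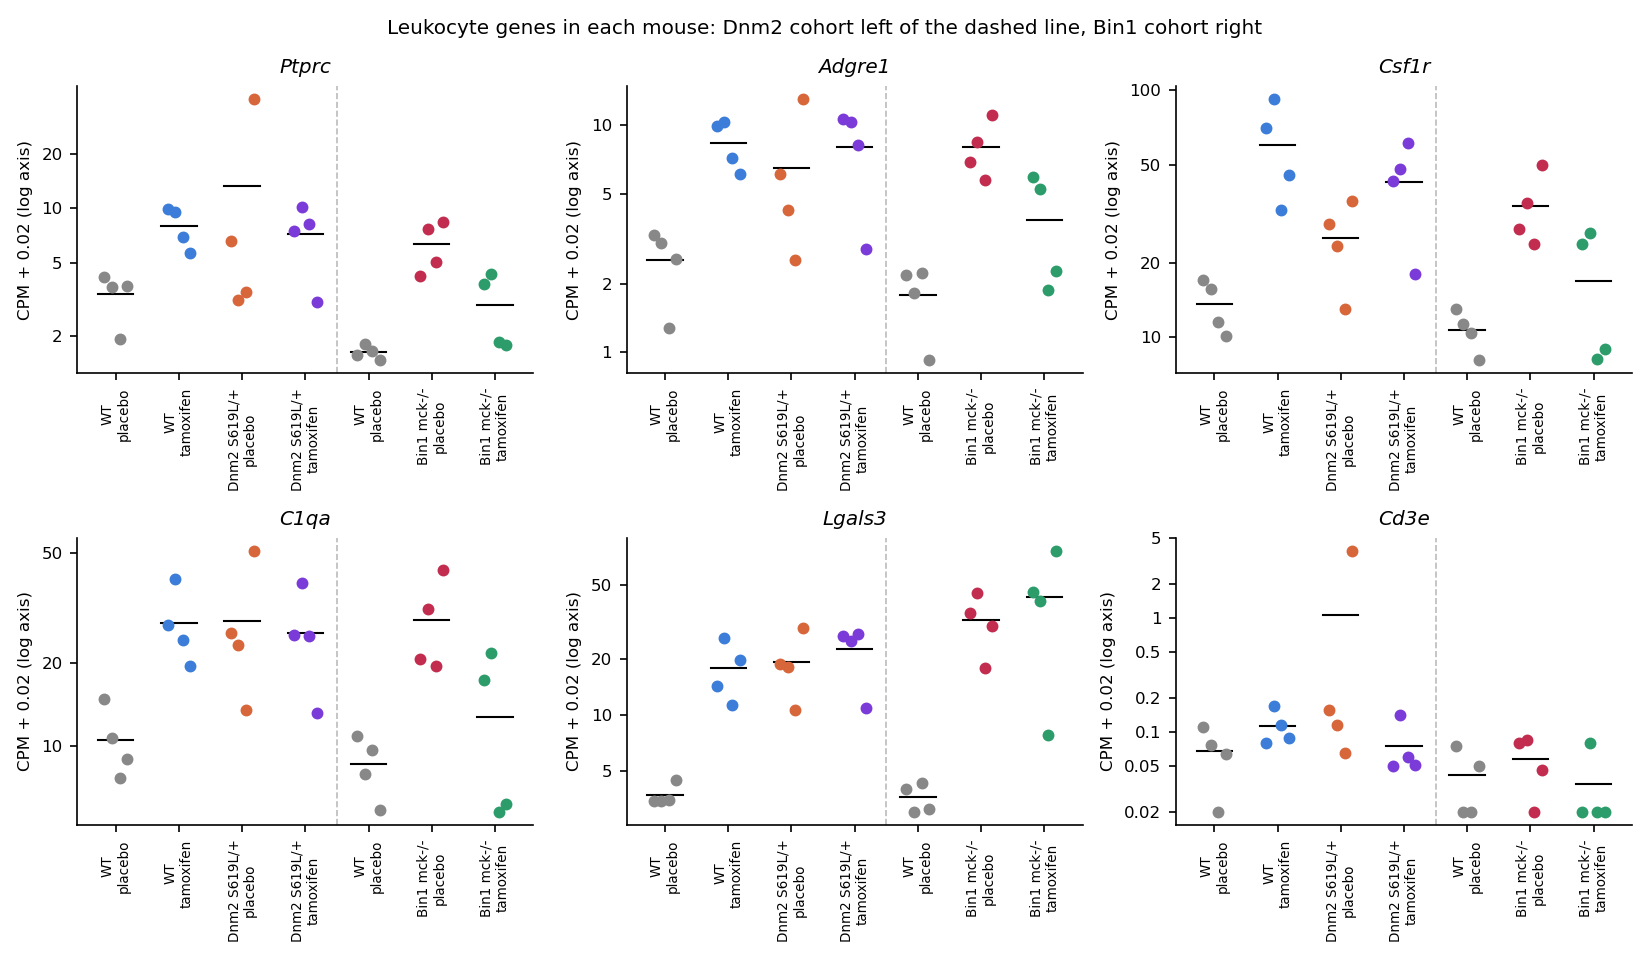
CPM + 0.02 on a log axis for 6 members in each of the 28 mice (points, 4 a group; horizontal lines are group means), with the Dnm2 cohort left and the Bin1 cohort right of the dashed line. Placebo Dnm2 S619L/+ mouse 4 stands apart for *Ptprc* (39.9 CPM) and *Cd3e* (3.88 CPM), whereas *Lgals3* is above all placebo WT mice in every mouse of the other 5 groups.

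A few libraries stood apart from their groups across the whole set. Placebo Dnm2 S619L/+ mouse 4 was the highest of its group in 39 of the 41 members and the highest of its cohort in 30. Relative to the mean of the other 3 mice of its group, its CPM was 25.8 times as high for the T and NK cell genes (median of 5), 4.80 for the pan-leukocyte genes, 3.32 for the myeloid genes, 2.42 for complement C1q and 1.47 for the genes of resident or alternatively activated macrophages. B and plasma cell genes were high in the same library: *Igkc*, an antibody light chain, had 309 CPM against 0.48 to 0.766 in the other 3, and *Jchain*, the joining chain of secreted antibodies, had 59.3 against 0.0905 to 0.24. Over the 11 B and plasma cell genes, the summed level was 693 CPM in this mouse and 13.5 to 61.9 in the others of its group. The part of lymphocytes in the results of this mouse was not tested, and results that rest on it are given with and without it.

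In the opposite direction, tamoxifen Dnm2 S619L/+ mouse 4 was the lowest of its group in 34 members, placebo WT mouse 3, the library with the fewest reads, was the lowest of the Dnm2 cohort in 30, and tamoxifen Bin1 mck-/- mouse 3 was the lowest of its group in 29. Placebo Bin1 mck-/- mouse 4 was the highest of its cohort in 30 members. The median level of the 36 genes without the T and NK cell class on the log2(CPM + 0.25) scale, relative to the mean of the placebo WT mice of the cohort, was 1.25, 0.87, 0.27 and 2.49 in placebo Dnm2 S619L/+ mice 1 to 4. It was 1.44, 1.95, 1.2 and 0.99 in tamoxifen WT mice, 1.39, 1.75, 1.63 and 0.27 in tamoxifen Dnm2 S619L/+ mice, 1.18, 1.66, 1.02 and 2.2 in placebo Bin1 mck-/- mice and 1.28, 1.33, 0.00 and 0.30 in tamoxifen Bin1 mck-/- mice. In tamoxifen Bin1 mck-/- mice 3 and 4, 18 and 24 of the 36 genes were above the WT mean. The median of the 5 T and NK cell genes lay between −0.25 and 0.63 in every mouse except placebo Dnm2 S619L/+ mouse 4, where it was 3.86.

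**Figure D2:**
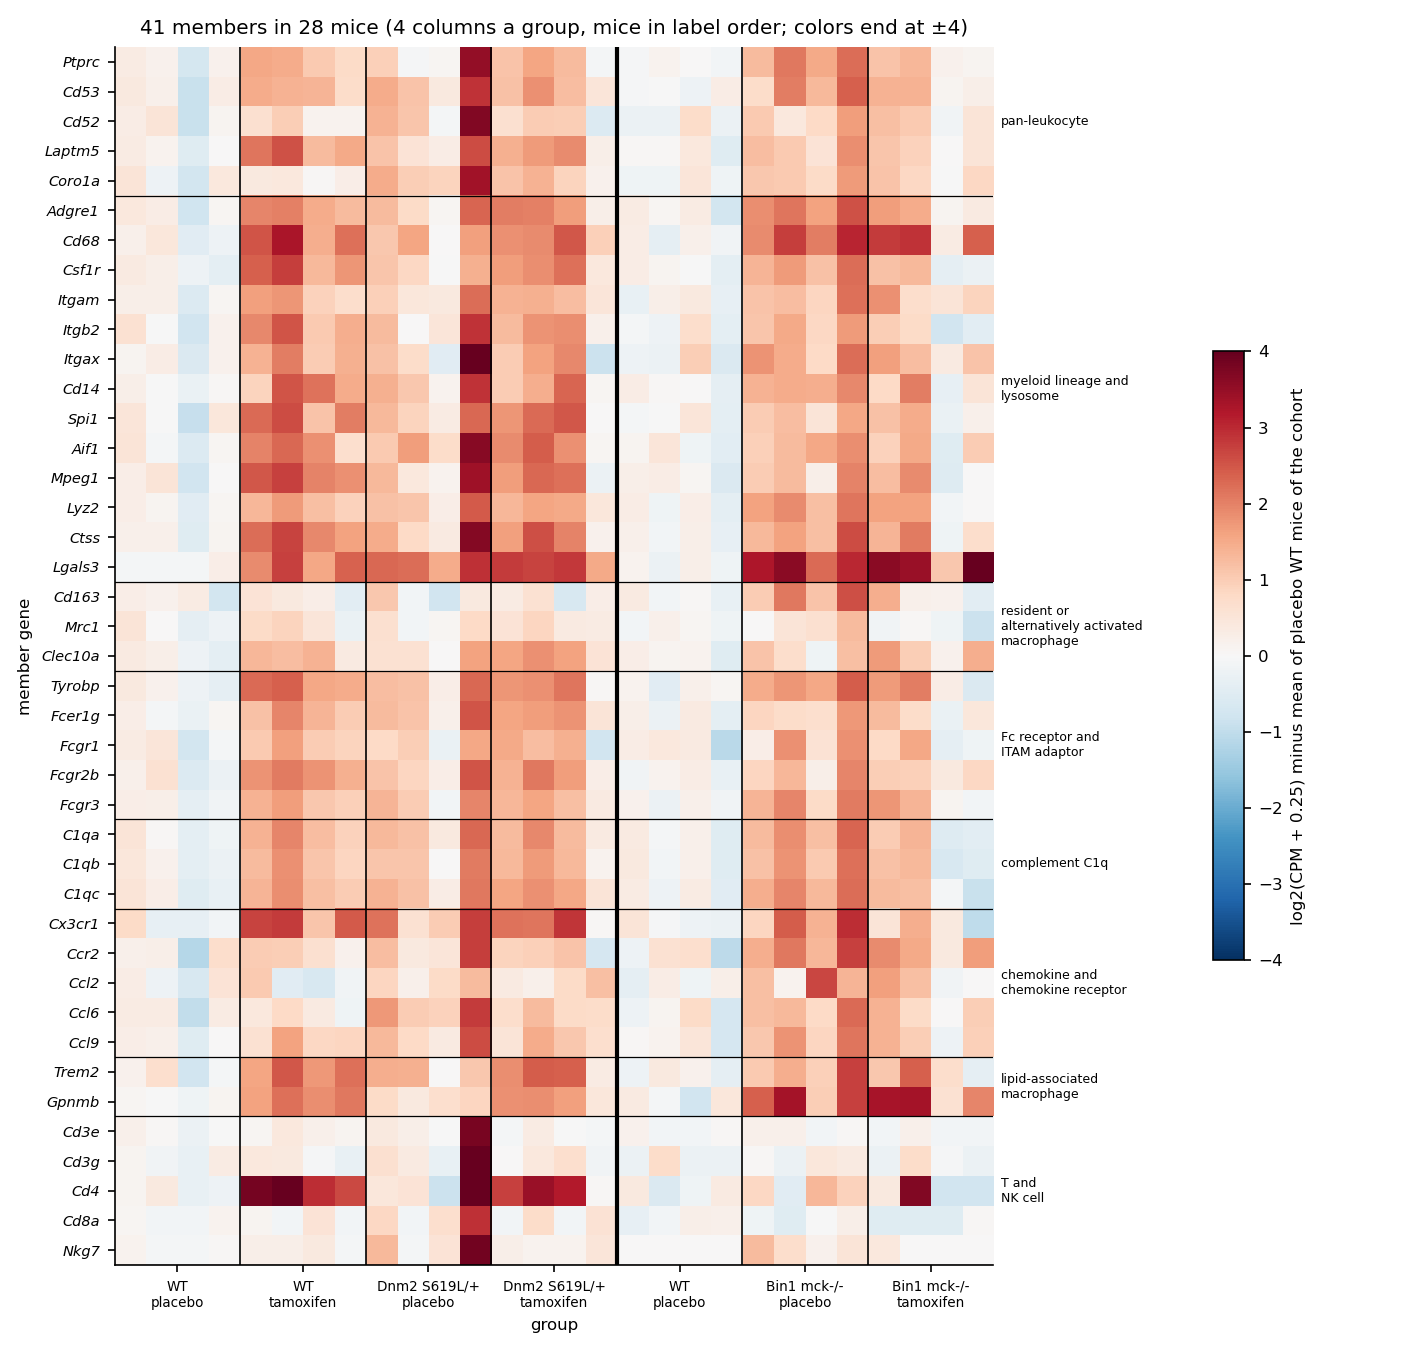
Color scale of log2(CPM + 0.25) minus the mean of the placebo WT mice of the same cohort for the 41 members (rows, by role class) in the 28 mice (columns, 4 a group). Placebo Dnm2 S619L/+ mouse 4 is high in 39 of 41 rows relative to its group, including the T and NK cell rows, and *Cd4* is high in tamoxifen WT mice without *Cd3e* or *Cd3g*.

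Placebo Dnm2 S619L/+ mice were compared with placebo WT mice to ask whether the disease changes the leukocyte genes of muscle. Of the 37 tested members, 22 rose and none fell, beside 21.9% of all 15439 genes called in either direction, 12.1% higher and 9.81% lower. All 37 fold changes were positive, with a median log2 fold change of 1.46 beside 0.02 over all genes, and DESeq2 called 30. The groups did not overlap for 10 of the 41 members, all higher in Dnm2 S619L/+, beside 14.3% of all genes higher and 10.6% lower without overlap. By class, 5 of 5 pan-leukocyte genes, 7 of 13 myeloid genes, 4 of 5 Fc receptor and adaptor genes, 3 of 3 C1q genes and 3 of 5 chemokine and receptor genes rose, and none of the 3 resident or alternatively activated, of the 2 lipid-associated or of the T and NK cell genes passed the test. In bulk tissue, more cells of a type and more RNA per cell cannot be told apart.

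*Lgals3*, which encodes the sugar-binding protein galectin-3 of macrophages, had the smallest p. It had 3.43, 3.42, 3.48 and 4.42 CPM in placebo WT and 18.9, 18.2, 10.6 and 29.5 in placebo Dnm2 S619L/+ mice 1 to 4 (log2 fold change 2.38 ± 0.35, adjusted p = 0.000331 by edgeR). The groups were well apart, also without mouse 4. *Lyz2*, encoding lysozyme, had 43.8, 40.1, 27 and 38.6 CPM in WT and 83.8, 80.2, 44.5 and 203 in Dnm2 S619L/+ mice (log2 fold change 1.46 ± 0.37, adjusted p = 0.0125 by edgeR), and again every Dnm2 S619L/+ mouse was above every WT mouse, mouse 3 by the smallest margin. *Ccl6*, a chemokine of myeloid cells, had 5.04, 5.12, 1.9 and 5.09 against 13.8, 8.3, 7.83 and 29.6 CPM (log2 fold change 1.76 ± 0.39, adjusted p = 0.00632 by edgeR). *Coro1a*, which encodes the actin regulator coronin 1A of leukocytes, had 3.15, 1.81, 1.19 and 2.93 against 6.4, 4.42, 4.12 and 23.9 CPM (log2 fold change 2.04 ± 0.50, adjusted p = 0.0106 by edgeR). For these genes, too, the groups did not overlap. Of the other pan-leukocyte genes, *Cd53*, a tetraspanin, had 5.21, 4.03, 2.31 and 14.1 CPM in Dnm2 S619L/+ against 0.791 to 2.28 in WT mice (log2 fold change 1.78, edgeR adjusted p = 0.0155), *Cd52*, a small surface glycoprotein, 3.31, 2.69, 1.04 and 17.2 against 0.474 to 1.67 (log2 fold change 2.28, edgeR adjusted p = 0.0263), and *Laptm5*, a lysosomal membrane protein, passed with a log2 fold change of 1.44. The call of *Ptprc* (log2 fold change 1.94 ± 0.67, adjusted p = 0.0494 by edgeR) was close to the threshold. Mouse 4 had 9.12 times the mean of the other 3 mice of its group for *Ptprc*, 7.32 times for *Cd52*, 4.80 for *Coro1a*, 3.78 for *Laptm5* and 3.66 for *Cd53*.

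The C1q genes, whose products form the first component of the classical complement pathway, rose with nearly the same fold. *C1qa* had 14.7, 10.7, 7.67 and 9 CPM in WT and 25.7, 23.1, 13.5 and 50.9 in Dnm2 S619L/+ mice (log2 fold change 1.41 ± 0.38, adjusted p = 0.017 by edgeR), with mouse 3 of Dnm2 S619L/+ inside the WT range. *C1qc* (log2 fold change 1.33, edgeR adjusted p = 0.0169) and *C1qb* (log2 fold change 1.23, edgeR adjusted p = 0.0353) were alike. Among Fc receptors and their signalling adaptors, *Fcer1g*, the common gamma chain, had 3.59, 2.74, 2.37 and 3.08 CPM in WT and 7.28, 6.77, 3.4 and 18 in Dnm2 S619L/+ mice (log2 fold change 1.57 ± 0.42, adjusted p = 0.0156 by edgeR). Mouse 3 again lay within the range of WT. *Tyrobp*, the adaptor DAP12, and *Fcgr3*, a low-affinity IgG receptor, rose with log2 fold changes of 1.47 and 1.23, the inhibitory receptor gene *Fcgr2b* rose by 1.41, and *Fcgr1*, the high-affinity IgG receptor, did not pass (log2 fold change 1.03, edgeR adjusted p = 0.209). *Aif1*, the calcium-binding protein IBA1 of macrophages, had 0.598, 0.311, 0.158 and 0.38 against 0.969, 1.63, 0.724 and 7.2 CPM (log2 fold change 2.69 ± 0.75, adjusted p = 0.0197 by edgeR), and all Dnm2 S619L/+ mice were above the WT mice. The chemokine gene *Ccl9* (log2 fold change 1.54, edgeR adjusted p = 0.017) and the fractalkine receptor gene *Cx3cr1* (log2 fold change 2.47, edgeR adjusted p = 0.0354) rose as well. *Cx3cr1* had 0.466, 0.0849, 0.0791 and 0.134 CPM in WT and 1.65, 0.384, 0.588 and 2.57 in Dnm2 S619L/+ mice, so that mouse 2 lay below the highest WT mouse.

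The remaining called myeloid genes were *Itgam* and *Itgax*, alpha chains of leukocyte integrins, the lipopolysaccharide co-receptor gene *Cd14* and the lysosomal protease gene *Ctss*, with log2 fold changes of 1.31, 2.67, 1.92 and 2.21. The defining macrophage genes *Adgre1* (log2 fold change 1.31, edgeR adjusted p = 0.0568) and *Csf1r* (log2 fold change 0.89, edgeR adjusted p = 0.109) did not pass the test, nor did the lysosomal glycoprotein gene *Cd68*, the integrin chain gene *Itgb2*, *Spi1*, or *Mpeg1*, which encodes the pore-forming protein perforin-2. *Ccr2*, the monocyte receptor for CCL2, and *Ccl2* had log2 fold changes of 1.46 and 1.22 and did not pass. The scavenger receptor genes *Cd163* and *Mrc1* had the smallest fold changes of the set (0.27 and 0.37), and *Clec10a*, a lectin of alternatively activated macrophages, had 0.84. *Trem2*, a lipid receptor of macrophages, and *Gpnmb*, a lysosomal glycoprotein of lipid-loaded macrophages, had log2 fold changes of 1.33 and 0.71, with edgeR adjusted p = 0.0966 and 0.0528.

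Without placebo Dnm2 S619L/+ mouse 4, the calls fell from 22 to 4 of 37, beside 8.7% of all genes called higher in that fit. They were *Lgals3* (log2 fold change 2.11, edgeR adjusted p = 0.00107), *Ccl6* (1.19, 0.0181), *Coro1a* (1.09, 0.0318) and *Lyz2* (0.89, 0.0432). All 37 fold changes stayed positive and their median was 0.86. *Ptprc* went from 1.94 to 0.36, *Itgax* from 2.67 to 0.75 and *Aif1* from 2.69 to 1.43, whereas *Csf1r* went from 0.89 to 0.68. Leaving out a WT mouse also mattered, with 11 calls without mouse 2, 9 without mouse 3 and 11 without mouse 4, beside 7.93%, 8.86% and 11% of all genes called higher. *Coro1a*, *Lyz2*, *Lgals3* and *Ccl6* were called whichever of the 8 mice was left out.

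**Figure D3:**
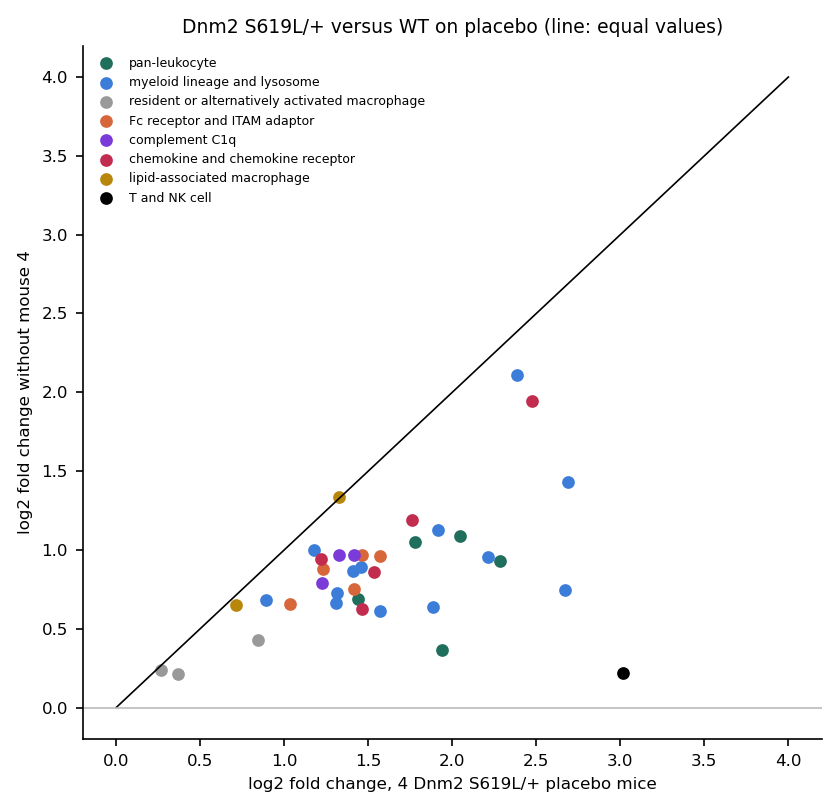
Log2 fold change of Dnm2 S619L/+ versus WT on placebo for the 37 tested members, with all 4 Dnm2 S619L/+ mice (x axis) and without mouse 4 (y axis), colored by role class. All points but that of *Trem2* lie below the line of equal values, *Cd4* (0.22 without mouse 4) farthest, and *Lgals3* (2.11) has the highest value without mouse 4.

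Tamoxifen was compared with placebo in WT mice to describe the action of the drug in muscle without disease. Here 25 of the 37 tested members rose and none fell, beside 27.7% of all genes called in either direction, 15.8% higher and 11.9% lower. The median log2 fold change was 1.46 beside −0.04 over all genes, all 37 were positive, and DESeq2 called 27. The groups did not overlap for 30 of the 41 members, all higher with tamoxifen, beside 17.6% of all genes higher and 13.8% lower without overlap. By class, 12 of 13 myeloid genes, 4 of 5 Fc receptor and adaptor genes, 3 of 3 C1q genes and 2 of 2 genes of lipid-associated macrophages rose, but only 1 of 5 pan-leukocyte genes, 1 of 5 chemokine and receptor genes and 1 of 3 resident or alternatively activated genes.

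*Gpnmb* had 3, 2.74, 2.45 and 3.08 CPM in placebo and 9.11, 14, 10.9 and 12.9 in tamoxifen WT mice (log2 fold change 2.04 ± 0.25, adjusted p = 0.000227 by edgeR). *Trem2* had 0.385, 0.651, 0.0791 and 0.29 and 1.45, 2.88, 1.65 and 2.35 CPM (log2 fold change 2.44 ± 0.55, adjusted p = 0.00443 by edgeR). For both genes of lipid-associated macrophages, every tamoxifen mouse was above every placebo mouse. *Lgals3* had 14.3, 26.1, 11.3 and 19.7 CPM with tamoxifen against 3.42 to 4.42 with placebo (log2 fold change 2.27 ± 0.34, adjusted p = 0.000488 by edgeR). *Cd68* had 4.67, 5.52, 2.85 and 3.42 CPM with placebo and 23.8, 40.6, 11.4 and 19.1 with tamoxifen (log2 fold change 2.51 ± 0.43, adjusted p = 0.000944 by edgeR). *Csf1r*, given for each mouse above, was between 32.7 and 92.2 CPM with tamoxifen and did not exceed 17 with placebo (log2 fold change 2.15 ± 0.39, adjusted p = 0.00144 by edgeR). *Adgre1* was apart between the groups as well (log2 fold change 1.68, edgeR adjusted p = 0.0155).

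Of the Fc receptors and adaptors, *Tyrobp* had 3.1, 2.6, 1.98 and 1.72 CPM with placebo and 12, 13.1, 7.2 and 6.8 with tamoxifen (log2 fold change 2.04 ± 0.46, adjusted p = 0.00494 by edgeR). *Fcgr2b* (log2 fold change 1.76, edgeR adjusted p = 0.0103) and *Fcgr3* (log2 fold change 1.31, edgeR adjusted p = 0.0129) rose without overlap as well. *C1qc* had 12.5, 10.6, 6.25 and 7.01 CPM with placebo and 22.9, 32.1, 20.3 and 18 with tamoxifen (log2 fold change 1.34 ± 0.36, adjusted p = 0.0125 by edgeR), and *C1qa* and *C1qb* rose by 1.39 and 1.28 on the log2 scale. Of the pan-leukocyte genes, only *Laptm5* passed, with 8.59, 7.47, 4.82 and 6.79 CPM on placebo and 30.8, 40.7, 16.6 and 19.8 on tamoxifen (log2 fold change 1.94 ± 0.48, adjusted p = 0.00849 by edgeR). *Coro1a* (log2 fold change 0.18, edgeR adjusted p = 0.819), *Cd52* (log2 fold change 0.45, edgeR adjusted p = 0.65), *Cd53* (log2 fold change 1.23, edgeR adjusted p = 0.0613) and *Ptprc* (log2 fold change 1.22, edgeR adjusted p = 0.181) did not pass, although the groups were apart for *Ptprc*. *Cx3cr1* had 0.466, 0.0849, 0.0791 and 0.134 CPM on placebo and 2.49, 2.64, 0.659 and 2.04 on tamoxifen (log2 fold change 3.06 ± 0.78, adjusted p = 0.00958 by edgeR). *Clec10a* rose (log2 fold change 1.17, edgeR adjusted p = 0.0257), and *Cd163* (0.20), *Mrc1* (0.49), *Ccr2* (0.60), *Ccl2* (0.10), *Ccl6* (0.28) and *Ccl9* (1.02) did not pass. Leaving out tamoxifen WT mouse 2, the highest of its group in 32 members, gave 14 calls beside 11.2% of all genes called higher, and 14 of the 25 genes were called whichever of the 8 mice was left out.

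Bone genes moved with these results in the same mice. Of 13 osteoclast genes, 10 rose with tamoxifen in WT mice, and of 12 tested osteoblast and osteocyte genes 11 rose. The 13 osteoclast genes summed to 92.1 to 165 CPM in placebo WT and 386 to 1733 in tamoxifen WT mice, and the 14 osteoblast and osteocyte genes to 159 to 479.7 and 4823 to 10506. *Mmp9*, a matrix protease of osteoclasts, had 1.52, 0.792, 0.316 and 0.469 and 222, 349, 51.7 and 122 CPM (log2 fold change 7.69, edgeR adjusted p = 0.000268), and *Ctsk*, the collagen-degrading protease cathepsin K, rose too (log2 fold change 5.77, edgeR adjusted p = 0.000253). *Spp1*, the bone matrix and macrophage protein osteopontin, had 2.76, 1.73, 1.19 and 3.04 CPM on placebo and 705, 771, 212 and 414 on tamoxifen. Tamoxifen WT mouse 2 had the highest osteoclast sum of its group. It was also the highest of its group in 32 of the 41 members, among them *Csf1r*, *Cd68*, *Lgals3*, *Trem2* and *Gpnmb* but also *Lyz2*, *Adgre1* and the C1q genes. Whether RNA of bone cells is part of the rise of the genes that osteoclasts share with macrophages was not tested. *Csf1r* had the same order over the 4 tamoxifen mice of each genotype of this cohort as the osteoclast sum. The same held for *Cd68*, *Spi1*, *Itgb2* and the pan-leukocyte gene *Laptm5*. No other member kept this order in both genotypes, and those without it included *Tyrobp*, *Lgals3*, *Trem2*, *Gpnmb* and *C1qa*. *Csf1r* and *C1qa* are plotted below. Muscle fiber genes summed to 132480 to 162360 CPM in placebo WT and 104760 to 119120 in tamoxifen WT mice, lower without overlap, and of the 10 genes *Myh2* was called lower with tamoxifen. Their part in the results was not tested.

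**Figure D4:**
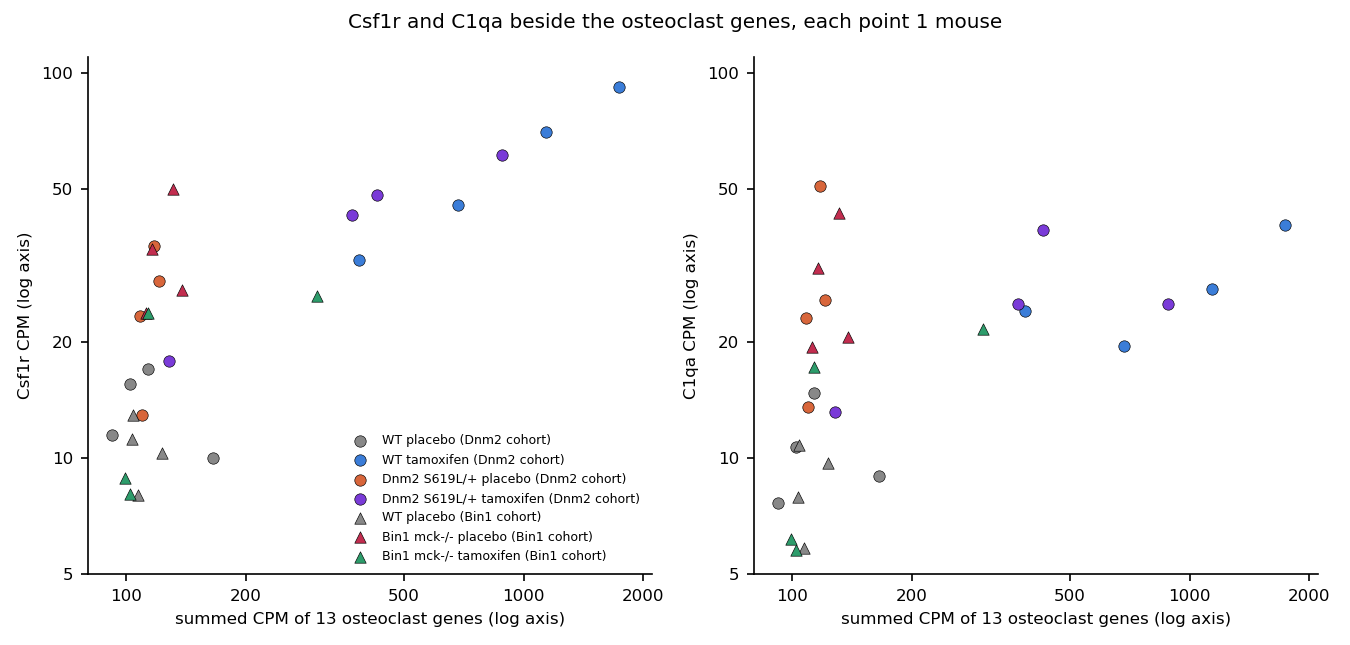
*Csf1r* (left) and *C1qa* (right) CPM against the summed CPM of 13 osteoclast genes, all on log axes, with 1 point for each of the 28 mice colored by group. All tamoxifen WT mice (osteoclast sum 386 to 1733 CPM) lie to the right of every placebo mouse, whereas placebo Dnm2 S619L/+ and Bin1 mck-/- mice have 13.5 to 50.9 CPM of *C1qa* with an osteoclast sum of 108 to 138 CPM.

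Tamoxifen Dnm2 S619L/+ mice were compared with placebo Dnm2 S619L/+ mice to describe the treatment in disease. Of the 37 tested members, 1 rose and none fell, beside 8.27% of all genes called in either direction, 5.22% higher and 3.05% lower. Of the fold changes, 15 were positive and 22 negative, with a median of −0.05 beside −0.03 over all genes, and no member had groups that did not overlap (4.02% of all genes were higher and 6.37% lower without overlap). The called gene was *Gpnmb*, which had 5, 3.74, 4.62 and 5.26 CPM on placebo and 10.6, 11, 9.27 and 3.98 on tamoxifen (log2 fold change 0.90 ± 0.25, adjusted p = 0.0368 by edgeR). Mouse 4 on tamoxifen was within the placebo range and the other 3 were above it. *Csf1r* had a log2 fold change of 0.75 (edgeR adjusted p = 0.231), *Adgre1* of 0.30 (0.721), *Ptprc* of −0.88 (0.423), *Cd52* of −1.71 (0.122) and *Ccl6* of −0.98 (0.129). None of these 5 passed the test.

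These values rested on 1 mouse on each side. Without placebo mouse 4, 32 of the 37 fold changes were positive with a median of 0.60, *Ptprc* turned to 0.70 (edgeR adjusted p = 0.268), *Gpnmb* was no longer called (0.96, edgeR adjusted p = 0.0566) and *Cd4* was. In that fit 4.91% of all genes were called in either direction. Without tamoxifen mouse 4, 2 of the 37 members were called, *Gpnmb* with 1.14 (edgeR adjusted p = 0.000201) and *Trem2* with 1.33 (edgeR adjusted p = 0.0431). Calls over all genes were more frequent there, 16.4% in either direction and 10.2% higher. Without placebo mouse 3, *Cd52* alone was called, lower with tamoxifen, beside 8.07% of all genes in either direction. No member was called when placebo mouse 1 or 2 or tamoxifen mouse 1, 2 or 3 was left out, beside 2.35 to 6.49% of all genes. Tamoxifen mouse 4 also lacked most of the bone signal of its group: its 13 osteoclast genes summed to 128 CPM against 369.7 to 883 in the other 3, and *Acp5*, the tartrate-resistant acid phosphatase of osteoclasts, had 78.8, 85.1, 240.3 and 5.43 CPM in mice 1 to 4. Over the group, 7 of 13 osteoclast genes and 11 of 12 tested osteoblast and osteocyte genes rose with tamoxifen, and 3 of 5 tested B and plasma cell genes fell, *Igkc* from the high level of placebo mouse 4 to at most 0.644 CPM. Without placebo mouse 4, none of these 5 was called and 4 of the 13 osteoclast genes were, and without tamoxifen mouse 4, 11 of the 13 were, both settings chosen after seeing the data.

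Against placebo WT mice, which also serve in both comparisons above, 22 of the 37 members were higher in tamoxifen Dnm2 S619L/+ mice and none were lower, beside 28.9% of all genes called in either direction, 15.8% higher and 13.1% lower. The median log2 fold change was 1.40 beside 0.01 over all genes, and DESeq2 called 27. The groups did not overlap for 12 of the 41 members (12.7% of all genes were higher and 13.4% lower without overlap). *Lgals3* had 26.7, 25.1, 27.4 and 10.9 CPM in tamoxifen Dnm2 S619L/+ mice, each above the WT mice (log2 fold change 2.60 ± 0.35, adjusted p = 0.00024 by edgeR). *Clec10a* had 2.59, 2.32, 1.66 and 1.41 CPM in placebo WT and 6.35, 7.45, 6.5 and 2.96 in tamoxifen Dnm2 S619L/+ mice (log2 fold change 1.52 ± 0.37, adjusted p = 0.00659 by edgeR), again without overlap. *Gpnmb* (log2 fold change 1.61, edgeR adjusted p = 0.000477), *Cd68* (log2 fold change 1.88, edgeR adjusted p = 0.00486), *Trem2* (log2 fold change 2.33, edgeR adjusted p = 0.00581) and *Csf1r* (log2 fold change 1.64, edgeR adjusted p = 0.00645) followed. The C1q genes had log2 fold changes of 1.26, 1.17 and 1.39, *Tyrobp* of 1.67, *Fcer1g* of 1.5, *Fcgr3* of 1.18, *Cx3cr1* of 2.69 and *Laptm5* of 1.42, and all passed. *Ptprc* did not (log2 fold change 1.06, edgeR adjusted p = 0.243). The count fell to 14, 10 and 12 without tamoxifen mouse 1, 2 or 3 and to 13 and 10 without WT mouse 2 or 3, beside 10.8 to 12.3% of all genes called higher in these fits, and 9 genes were called whichever mouse was left out.

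The interaction tested whether the tamoxifen effect differed between Dnm2 S619L/+ and WT mice. All 37 members had a negative interaction, that is, a lower tamoxifen effect in Dnm2 S619L/+ mice, with a median of −1.54 on the log2 scale beside −0.01 over all genes. No member passed edgeR's test, beside 0.259% of all genes called in either direction, 0.0324% higher and 0.227% lower, while 29 had an unadjusted p under 0.05 and DESeq2 called 1. The smallest p was that of *Lgals3* (difference of log2 fold changes −2.05 ± 0.47, edgeR adjusted p = 0.0887), which was also the gene called by DESeq2, followed by *Gpnmb* (−1.14, edgeR adjusted p = 0.189). Without placebo Dnm2 S619L/+ mouse 4, the median was −1.01 and none were called, beside 0.0256% of all genes. Without placebo Dnm2 S619L/+ mouse 3, 2 were called, *Lgals3* and *Fcgr3*, beside 1.87% of all genes. The interaction shares its placebo mice with the disease comparison, so the 2 are not independent.

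In the Bin1 cohort, placebo Bin1 mck-/- mice were compared with placebo WT mice to describe the second disease model. Of the 37 tested members, 13 rose and none fell, beside 2.61% of all 14841 genes called in either direction, 1.99% higher and 0.627% lower. All 37 fold changes were positive, with a median of 1.71 on the log2 scale beside 0.01 over all genes, 35 had an unadjusted p under 0.05, and DESeq2 called 31. The groups did not overlap for 29 of the 41 members, all higher in Bin1 mck-/-, beside 9.09% of all genes higher and 7.46% lower without overlap. By class, 4 of 5 pan-leukocyte genes, 5 of 13 myeloid genes, 1 of 3 resident or alternatively activated genes, 1 of 5 Fc receptor and adaptor genes and 2 of 5 chemokine and receptor genes rose, and no C1q or lipid-associated gene passed.

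*Ptprc*, between 1.45 and 1.77 CPM in WT and between 4.23 and 8.39 in Bin1 mck-/- mice, had the smallest p of the set (log2 fold change 1.99 ± 0.32, adjusted p = 0.011 by edgeR). *Cd53* had 0.671, 0.696, 0.576 and 0.934 CPM in WT and 1.33, 3.73, 2.12 and 4.74 in Bin1 mck-/- mice (log2 fold change 2.05 ± 0.45, adjusted p = 0.0302 by edgeR). *Coro1a* had 3.38, 3.41, 5.54 and 3.4 and 8.34, 8.21, 6.77 and 13.2 CPM (log2 fold change 1.22 ± 0.27, adjusted p = 0.0319 by edgeR), and *Laptm5* rose by 1.24 on the log2 scale. These leukocyte genes were apart in all mice, while *Cd52* (log2 fold change 1.09, edgeR adjusted p = 0.119) did not pass. *Adgre1*, between 0.904 and 2.21 CPM in WT and between 5.73 and 11.1 in Bin1 mck-/- mice, rose (log2 fold change 2.17 ± 0.39, adjusted p = 0.0147 by edgeR). *Cd68* had 2.91, 1.74, 2.72 and 2.08 CPM in WT and 9.17, 17.3, 10.3 and 20.9 in Bin1 mck-/- mice (log2 fold change 2.61 ± 0.50, adjusted p = 0.0289 by edgeR). *Lgals3* showed the largest rise of the called members, from 3.97, 2.99, 4.26 and 3.1 to 35.6, 45.7, 17.9 and 30.2 CPM (log2 fold change 3.17 ± 0.60, adjusted p = 0.0316 by edgeR). *Itgam* and *Cd14* rose by 1.68 and 1.70 on the log2 scale.

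*Cd163*, the hemoglobin scavenger receptor of resident macrophages, had 5.29, 3.72, 4.16 and 3.25 CPM in WT and 8.46, 18.1, 9.11 and 25.6 in Bin1 mck-/- mice (log2 fold change 1.90 ± 0.45, adjusted p = 0.0495 by edgeR), without overlap. *Fcgr2b* had 3.3, 4.07, 4.61 and 2.98 and 6.87, 9.56, 4.43 and 15.1 CPM (log2 fold change 1.27 ± 0.30, adjusted p = 0.0432 by edgeR), where Bin1 mck-/- mouse 3 lay within the WT range. *Ccr2* had 1.34, 2.54, 2.69 and 0.633 and 4.76, 7.63, 4.34 and 12.1 CPM (log2 fold change 2.01 ± 0.48, adjusted p = 0.0474 by edgeR). *Ccl9* had 4.19, 4.45, 5.7 and 2.44 and 8.7, 14.5, 7.53 and 18.8 CPM (log2 fold change 1.56 ± 0.38, adjusted p = 0.049 by edgeR). Both were apart in all mice. Among the members that did not pass were *Csf1r* (log2 fold change 1.68, edgeR adjusted p = 0.0545), *C1qa* (log2 fold change 1.74, edgeR adjusted p = 0.0694), *C1qb* (log2 fold change 1.62, edgeR adjusted p = 0.0975), *C1qc* (log2 fold change 1.77, edgeR adjusted p = 0.0648), *Trem2* (log2 fold change 2.44, edgeR adjusted p = 0.083) and *Gpnmb* (log2 fold change 2.61, edgeR adjusted p = 0.0722), and for these 6 the groups did not overlap. *Mrc1* (0.68) and *Clec10a* (0.89) had the smallest fold changes.

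The calls of this comparison were sensitive to single mice in both directions. Without WT mouse 5, 6, 7 or 8, the number of called members was 2, 1, 4 and 0, without Bin1 mck-/- mouse 1, 2 or 4 it was 4, 2 and 1, and without mouse 3, the lowest of its group in 26 members, it was 20. Calls over all genes moved in the same way, from 388 to 207, 26, 89 and 18 without WT mouse 5, 6, 7 or 8, to 105, 97 and 58 without Bin1 mck-/- mouse 1, 2 or 4 and to 728 without mouse 3. The median log2 fold change of the members was 1.71 with all mice, while without WT mouse 8 it was 1.59 and without Bin1 mck-/- mouse 4 it was 1.46, with all 37 positive in both cases. The 13 osteoclast genes summed to 103 to 123 CPM in WT and 112 to 138 in placebo Bin1 mck-/- mice, which overlap, and none of 12 tested was called higher. The 14 osteoblast and osteocyte genes summed to 288 to 425 CPM in WT and 427 to 1456 in placebo Bin1 mck-/- mice. These sums did not overlap and were highest in mouse 4, and none of 7 tested genes was called. Most of each sum was the collagen gene *Col1a1*, with 242 to 386 CPM in WT and 424, 639, 387 and 1429 in Bin1 mck-/- mice. In the latter, *Sp7* and *Mmp13* of the same list did not exceed 0.0533 and 0.503 CPM. The 10 muscle fiber genes summed to 143990 to 174470 and 106630 to 146400 CPM, and 2 of them, *Actn3* and *Pvalb*, were called lower. The part of these genes in the results was not tested.

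Tamoxifen was compared with placebo in Bin1 mck-/- mice. No member passed edgeR's test, beside 3.13% of all genes called in either direction, 1.52% higher and 1.61% lower, while 10 members had an unadjusted p under 0.05 and DESeq2 called 5. Of the fold changes, 33 were negative and 4 positive, with a median of −0.65 beside 0.00 over all genes, and 1 member was lower without overlap (4.69% of all genes were higher and 5.11% lower without overlap). This was *C1qc*, with 21.7, 30.9, 19.4 and 37.3 CPM on placebo and 19.2, 18.3, 7.41 and 4.09 on tamoxifen (log2 fold change −1.16, edgeR adjusted p = 0.176). The member with the smallest p was *Mrc1*, the mannose receptor, which had 13.1, 18.2, 20.2 and 31.3 CPM on placebo and 11.5, 13.2, 11.4 and 6.94 on tamoxifen (log2 fold change −0.94 ± 0.24, adjusted p = 0.0509 by edgeR). The ranges just overlapped. *Ptprc* (log2 fold change −1.11 ± 0.31, adjusted p = 0.0607 by edgeR) came next, and neither *Adgre1* (log2 fold change −1.08, edgeR adjusted p = 0.12) nor *Csf1r* (log2 fold change −1.02, edgeR adjusted p = 0.177) passed. *C1qa* had 20.6, 31.2, 19.4 and 43.2 CPM on placebo and 17.3, 21.7, 5.78 and 6.18 on tamoxifen (log2 fold change −1.17, edgeR adjusted p = 0.175), so that mice 1, 3 and 4 on tamoxifen were below the placebo range. *Lgals3* did not follow the others, with 46.1, 41.3, 7.76 and 76.9 CPM on tamoxifen and a log2 fold change of 0.41, and its tamoxifen mice 3 and 4 were the lowest and the highest of the cohort outside WT.

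Tamoxifen Bin1 mck-/- mouse 2 differed from its group in bone genes, with an osteoclast sum of 301 CPM against 98.9 to 114 in the other 3. Muscle fiber genes summed to 106630 to 146400 CPM on placebo and 125950 to 199200 on tamoxifen, and 2 of 10, *Actn3* and *Pvalb*, rose. Their part in the results was not tested. Without tamoxifen mouse 2, 6 of these 10 muscle fiber genes were called higher. In that fit 3 of the 37 members were called lower with tamoxifen, *Ptprc*, *Cd14* and *Mrc1*, with a median of −1.05 over the members. Calls over all genes rose there too, to 8.3% in either direction from 3.13% with all mice. Without placebo mouse 1, *Mrc1* was called, beside 1.18% of all genes, and without tamoxifen mouse 1, *Cd163*, beside 3.95%. Against placebo WT mice, 1 of 37 members was higher in tamoxifen Bin1 mck-/- mice and none lower, beside 0.849% of all genes called in either direction, 0.465% higher and 0.384% lower, with 22 members at an unadjusted p under 0.05 and 6 called by DESeq2. The median log2 fold change was 0.97 beside 0.03 over all genes, with 36 positive and 1 negative, and 5 members were higher without overlap (3.68% of all genes were higher and 4.29% lower). The called gene was *Lgals3* (log2 fold change 3.58 ± 0.61, adjusted p = 0.0311 by edgeR), whereas *Ptprc* (log2 fold change 0.88, edgeR adjusted p = 0.215), *Adgre1* (log2 fold change 1.1, edgeR adjusted p = 0.208) and *Csf1r* (log2 fold change 0.66, edgeR adjusted p = 0.477) did not pass. *Lgals3* was not called when any single mouse of these groups other than tamoxifen mouse 3 was left out. Without tamoxifen mouse 3 there were 4 calls, *Cd68*, *Lgals3*, *Clec10a* and *Gpnmb*, beside 1.75% of all genes called in either direction.

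**Figure D5:**
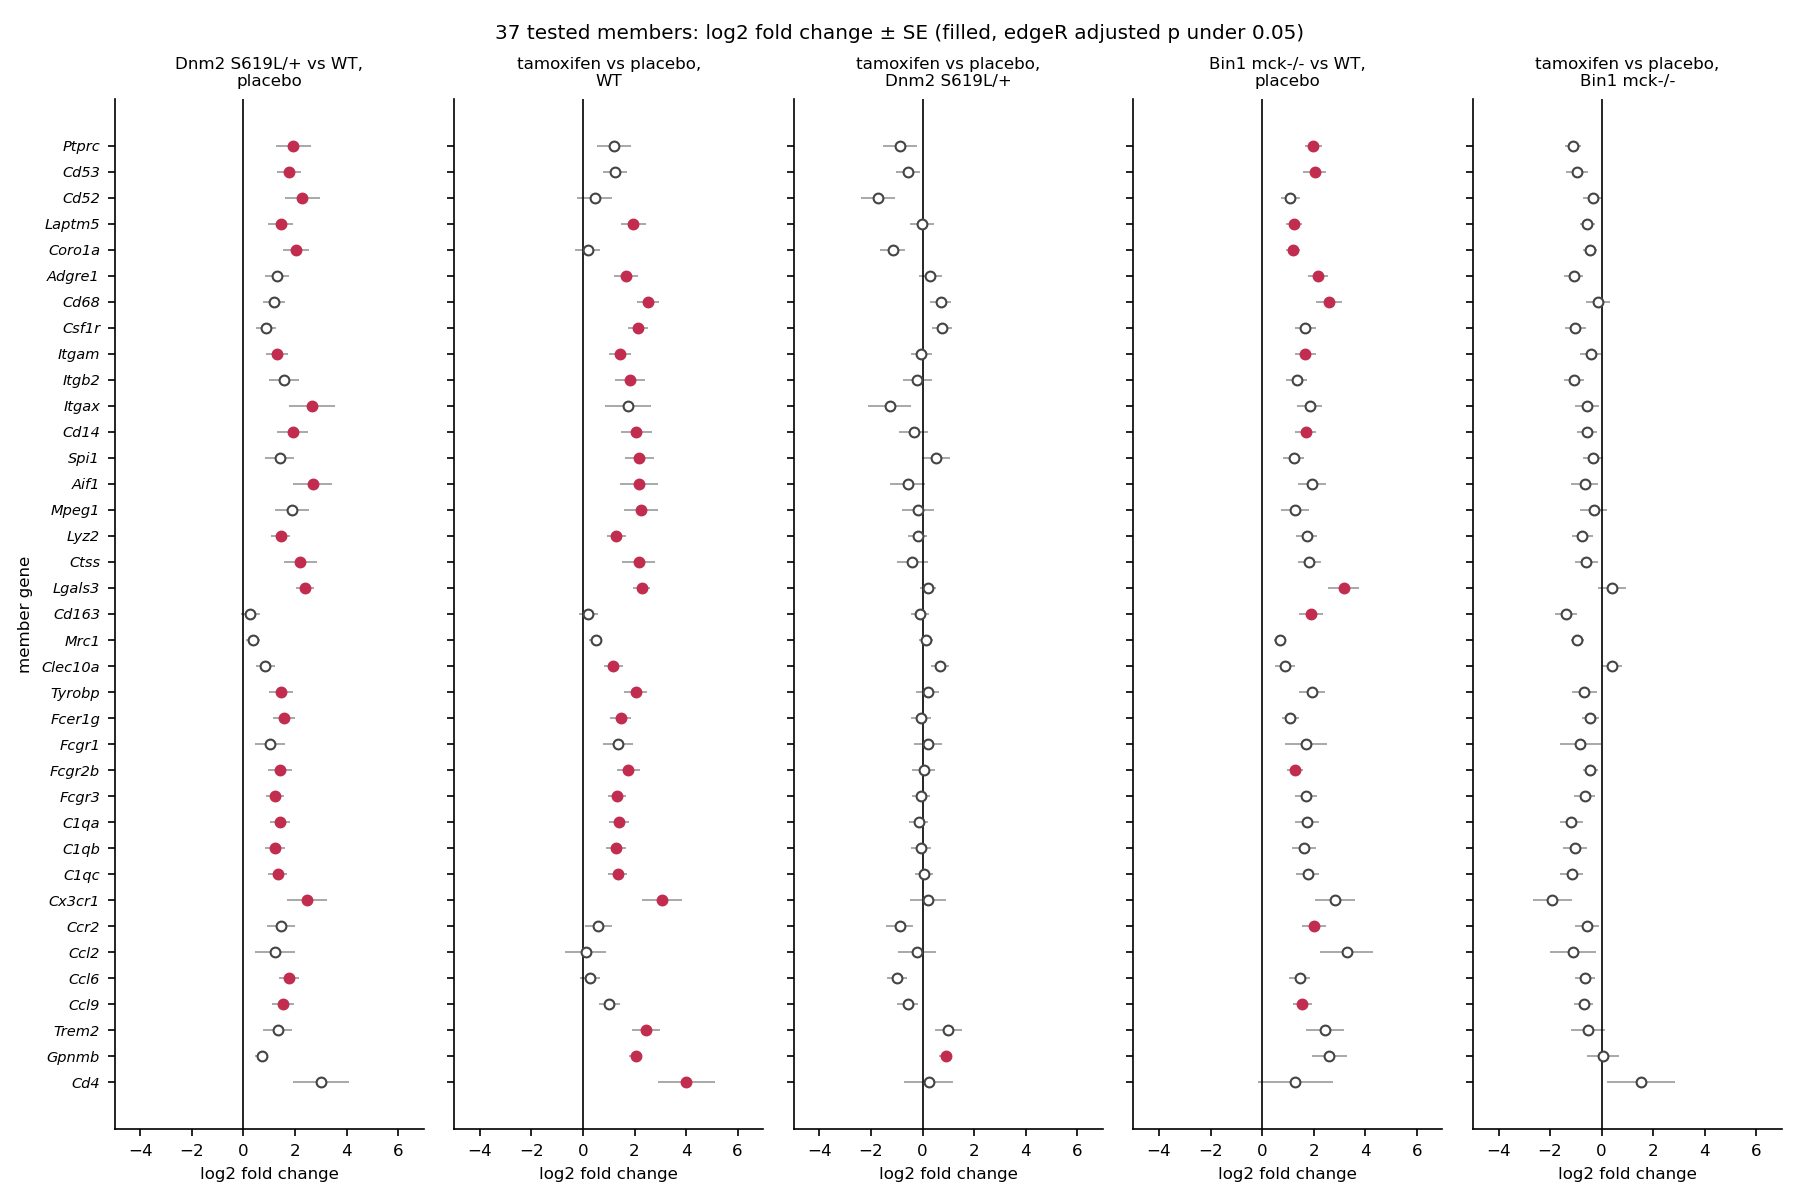
Log2 fold change with its SE (bars) for the 37 tested members in 5 comparisons, with genes that had an edgeR adjusted p under 0.05 filled. The filled points number 22, 25, 1, 13 and 0 from left to right, and all 37 points are above 0 in the panels of both disease comparisons and of tamoxifen in WT mice.

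The effects of both models were set against each other in a fit of all 28 mice, in which each effect is taken within its own cohort. For the disease effect, no member passed edgeR's test, beside 0.312% of all 16036 genes called in either direction, 0.143% higher and 0.168% lower, with 3 at an unadjusted p under 0.05 and 0 called by DESeq2. The difference, Dnm2 minus Bin1, was positive for 14 and negative for 23 members, with a median of −0.28 beside 0.00 over all genes. The smallest p-values were those of *Gpnmb* (difference −1.89 ± 0.67, edgeR adjusted p = 0.208) and *Cd163* (−1.64 ± 0.59, edgeR adjusted p = 0.218). Both had larger fold changes in Bin1 mck-/- mice. Without placebo Dnm2 S619L/+ mouse 4, all 37 differences were negative with a median of −0.85, and still none were called, beside 0.147% of all genes.

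For the effect of tamoxifen in disease mice, no member passed edgeR's test either, beside 1.71% of all genes called in either direction, 1.05% higher and 0.655% lower, with 5 at an unadjusted p under 0.05. The difference, Dnm2 minus Bin1, was positive for 30 and negative for 7 members, with a median of 0.57 beside 0.01 over all genes. DESeq2 called 2 members, *Csf1r* and *Mrc1*, which were also those with the smallest p in edgeR. For *Csf1r* the difference was 1.81 (SE of 0.58, edgeR adjusted p = 0.0724) and for *Mrc1* 1.11 (SE of 0.38, edgeR adjusted p = 0.0862). Without tamoxifen Bin1 mck-/- mouse 2, the mouse with bone genes in its group, edgeR called *Csf1r*, *Mrc1* and *Trem2*. In that fit 13.5% of all genes were called in either direction, 7.86% higher. Without tamoxifen Dnm2 S619L/+ mouse 4, edgeR called *Csf1r*, beside 11.2% of all genes in either direction, 6.6% higher.

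The T and NK cell genes are given apart. *Cd3e* and *Cd3g*, chains of the T cell receptor complex, *Cd8a*, the co-receptor of cytotoxic T cells, and *Nkg7*, a granule protein of cytotoxic cells, were too low to be tested. In placebo Dnm2 S619L/+ mice 1 to 4, *Cd3g* had 0.225, 0.144, 0 and 4.75 CPM, *Cd8a* 0.225, 0, 0.181 and 1.78 and *Nkg7* 0.406, 0, 0.136 and 3.6. In the other 6 groups these genes peaked at 0.244 CPM for *Cd3g*, 0.199 for *Cd8a* and 0.355 for *Nkg7*. Of 10 tested other T and NK cell genes, 7 were called higher in placebo Dnm2 S619L/+ than in WT mice, among them *Cd28* (log2 fold change 1.92, edgeR adjusted p = 0.00132) and *Zap70* (log2 fold change 2.27, edgeR adjusted p = 0.00461), T cell costimulation and signalling genes. The 23 genes of this list summed to 9.65, 7.97, 8.42 and 77.6 CPM in these mice and to 4.82 to 7.51 in placebo WT mice, so mouse 4 stood apart and the other 3 were slightly above the WT mice. Without mouse 4, a setting chosen after seeing the data that is also used for the lists below, the same 2 genes of the 10 were called and the other 5 were not.

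*Cd4*, the co-receptor of helper T cells that mouse monocytes and macrophages can also express at a low level, was the 1 tested member of this class. It had 0.497, 0.651, 0.316 and 0.357 CPM in placebo WT and 9.59, 11.6, 5.13 and 4.04 in tamoxifen WT mice (log2 fold change 4.0 ± 1.11, adjusted p = 0.0151 by edgeR). In those tamoxifen WT mice, *Cd3e* had 0.0603, 0.15, 0.0942 and 0.069 and *Cd3g* 0.161, 0.15, 0.0471 and 0 CPM, and of the 10 tested other T and NK cell genes none rose and *Tbx21*, a transcription factor of these cells, fell. In Dnm2 S619L/+ mice *Cd4* had 0.699, 0.768, 0.136 and 13.8 CPM on placebo and 4.32, 7.37, 6.06 and 0.463 on tamoxifen, and only placebo mouse 4 of these 8 had *Cd3e* above 0.15 CPM. In tamoxifen Bin1 mck-/- mice it had 0.305, 5.25, 0 and 0 CPM. The mice with *Cd4* above 1 CPM were thus the 4 tamoxifen WT mice, tamoxifen Dnm2 S619L/+ mice 1 to 3, tamoxifen Bin1 mck-/- mouse 2 and placebo Dnm2 S619L/+ mouse 4. All but the last also had the raised osteoclast sums given above, and the cell type behind *Cd4* in them was not tested.

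Genes of the same pathways outside the set were read from lists that, like the members, were chosen with earlier results of these data known. Of 34 tested other macrophage and monocyte genes, 10 rose in placebo Dnm2 S619L/+ mice, 18 with tamoxifen in WT mice and 1, the complement receptor gene *Vsig4*, with tamoxifen in Dnm2 S619L/+ mice, and none fell. Without placebo Dnm2 S619L/+ mouse 4, none of the 10 was called in the disease comparison and *Vsig4* kept its call for tamoxifen. Of 31 tested in the Bin1 cohort, 4 rose in placebo Bin1 mck-/- mice and 2 fell with tamoxifen. The rises included *Cd74*, the invariant chain of antigen presentation, with 51.1, 46.4, 26.6 and 51.9 CPM in placebo WT and 127, 99.3, 51.5 and 478 in placebo Dnm2 S619L/+ mice, where mouse 3 was within the WT range (log2 fold change 2.10, edgeR adjusted p = 0.0175). *Cybb*, the catalytic subunit of the phagocyte oxidase, had 2.21, 1.46, 1.18 and 1.11 CPM in WT and 4.59, 5.5, 4.37 and 6.15 in placebo Bin1 mck-/- mice (log2 fold change 1.78, edgeR adjusted p = 0.0174), and its partner *Ncf1* rose likewise (log2 fold change 1.52, edgeR adjusted p = 0.0174). The genes that fell with tamoxifen in Bin1 mck-/- mice were *Lyve1* (log2 fold change −2.11, edgeR adjusted p = 0.0493) and *Folr2* (log2 fold change −1.46, edgeR adjusted p = 0.0424), both markers of resident macrophages. Without tamoxifen mouse 2, 4 of 33 were lower, among them *Folr2* but not *Lyve1*.

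Of 13 tested macrophage growth factors and chemokine ligands, 6 rose and 1 fell in placebo Dnm2 S619L/+ mice, and in placebo Bin1 mck-/- mice 3 of 10 rose. *Cxcl10*, an interferon-induced chemokine for T cells, had 0.0912, 0.0849, 0 and 0.0223 CPM in placebo WT and 1.58, 2.5, 3.44 and 6.65 in placebo Dnm2 S619L/+ mice (log2 fold change 5.71, edgeR adjusted p = 3.32e-05), and *Cx3cl1*, the ligand of CX3CR1, had 2.93, 1.78, 1.19 and 3.28 and 19.5, 26.4, 11 and 13.1 (log2 fold change 2.87, edgeR adjusted p = 6.24e-05). For both ligands, all Dnm2 S619L/+ mice were above all WT mice, and mouse 4 was not the highest for *Cx3cl1*. Without mouse 4, these 2 of the 13 ligands and growth factors were called higher and none lower. In Bin1 mck-/- mice, *Cxcl10* rose from 0 to 0.0301 CPM in WT (1 read in 4 mice, so that no fold is given) to 0.133 to 0.355 CPM (edgeR adjusted p = 0.0267), and the cytokine gene *Il1b* from 0.0301 to 0.112 to 0.506 to 0.823 CPM (log2 fold change 3.46, edgeR adjusted p = 0.0246). Neutrophil and bone marrow genes were low, with no more than 14.1 CPM summed over 14 genes in the Dnm2 cohort and none called in these comparisons. In the Bin1 cohort they summed to 1.01 to 1.87 CPM in WT and 2.93 to 6.3 in placebo Bin1 mck-/- mice, without overlap. No mast cell gene was called in these comparisons either. Mast cell genes summed to 11.5 to 18.3 CPM in WT and 22.2 to 31 in placebo Bin1 mck-/- mice, also without overlap. Of the dendritic cell genes, *Ccr7* was called higher in placebo Dnm2 S619L/+ mice (log2 fold change 4.07, edgeR adjusted p = 0.0166), and 2 muscle fiber genes of 10, *Myh2* and *Myh4*, were lower. Without mouse 4, no dendritic cell gene was called, and of the muscle fiber genes *Myh2* alone.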

How the data were processed

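RNA of TA muscle was sequenced from TruSeq Stranded mRNA libraries of 28 mice, with an input of 300 ng and 2 min of fragmentation for the Dnm2 cohort, and 350 ng and 8 min for the Bin1 cohort. The deposited values are raw counts of reads per gene, 1 table a cohort. The authors' processing notes, as submitted, name bcl2fastq 2.20.0.422, cutadapt 1.10, Bowtie 1.2.2, STAR 2.5.3, HTSeq 0.6.1p1 and the genome build mm39. The annotation release and the strand setting are not given in the sources used here. Lines that name no gene, 22.0 to 30.8% of the counts of the Bin1 cohort, were left out. Of 55359 identifiers shared by the tables, 52083 were named from a GENCODE annotation of GRCm38.

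All 41 members and all gene lists were chosen with earlier results of these data known. Tests used edgeR 4.0.16 in R 4.3.3: filterByExpr, TMM, a robust quasi-likelihood fit of all groups of a cohort (of all 28 mice for differences between models), and Benjamini-Hochberg adjustment over all genes, with a threshold of 0.05. A prior count of 0.125 was used for fold changes. The scripts were tested on simulated data. No 2 mice of a group had counts within sampling noise of each other (lowest chi-square per gene of a pair 14.1 and 21.5). Replicate numbers do not pair the mice and were not used as a block. All members could be named, and per-mouse values were given for *Ptprc*, *Adgre1*, *Csf1r* and *Cd3e* and for up to 3 called members of a role class with the smallest p, or the 2 smallest where none was called. Of other lists, up to 2 genes a comparison with the smallest p were named. The alternatives were DESeq2 1.42.0, DESeq2 size factors in edgeR, no filter on low counts, the study's filter (over 10 reads required in 90% of mice), a fit of only the groups compared, the replicate block, and leaving out each mouse.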

Additional observations from a re-analysis of the deposited data

Results flagged for a closer look

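A value was picked out when the highest or lowest mouse of a group of 4 lay farther from the next one than Dixon's critical share of the group's range at the 95% level. Of 287 groups of values, 29 met this (10.1%), where independent, normally distributed values would give about 1 in 20. The members move together and some groups hold mice without reads, so these shares cannot be compared as a test. In placebo Dnm2 S619L/+ mouse 4, 12 members lay far above the other 3 mice. They were *Ptprc* (39.9 CPM), *Cd52* (17.2), *Coro1a* (23.9), *Itgax* (13.4), *Aif1* (7.2), *Mpeg1* (49.2) and *Ctss* (73.5 CPM), and the T and NK cell genes *Cd3e* (3.88 CPM), *Cd3g* (4.75), *Cd4* (13.8), *Cd8a* (1.78) and *Nkg7* (3.6 CPM). All were of the pan-leukocyte, myeloid or T and NK cell class, and no gene of the other classes was among them.

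Elsewhere in the Dnm2 cohort, *Lgals3* was far below its group in tamoxifen Dnm2 S619L/+ mouse 4 (10.9 CPM) and far above it in placebo WT mouse 4 (4.42 CPM), and *Cx3cr1* was high in placebo WT mouse 1 (0.466 CPM). *Ccl6* was high in tamoxifen Dnm2 S619L/+ mouse 2 (9.93 CPM) and low in placebo WT mouse 3 (1.9 CPM), and *Cd3e* was high in tamoxifen Dnm2 S619L/+ mouse 2 (0.12 CPM, 3 reads).

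In the Bin1 cohort, WT mouse 7 stood high in *Cd52* (2.82 CPM), *Coro1a* (5.54) and *Itgax* (1.44 CPM), and placebo Bin1 mck-/- mouse 4 in *Fcer1g* (10.4 CPM). *Fcgr1* had 0 CPM in WT mouse 8. Tamoxifen Bin1 mck-/- mouse 2 stood high in *Cd4* (5.25 CPM), *Cd3g* (0.243) and *Cd3e* (0.0607 CPM). The remaining values were near the detection limit: *Cd3g* in WT mouse 6 (0.244 CPM), *Cd8a* in tamoxifen Bin1 mck-/- mouse 4 (0.11 CPM) and *Nkg7* in tamoxifen Bin1 mck-/- mouse 1 (0.0872 CPM).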

How the results depend on the processing

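Scaling by DESeq2 size factors in edgeR changed no count of called members. For the other alternatives of this paragraph, a count is given where it differed from the main one by a ratio above 1.5, or came to or left 0. Counts not given stayed within that ratio. Without a filter on low counts, 7 members were called for Dnm2 S619L/+ versus WT, 15 for tamoxifen in WT, 9 for tamoxifen Dnm2 S619L/+ versus placebo WT and 1 for tamoxifen in Bin1 mck-/- mice. In the same order, 8.16%, 11.4%, 11.4% and 2.14% of all genes were called in either direction. The study's filter gave 1 call for tamoxifen in Bin1 mck-/- and 2 for tamoxifen Bin1 mck-/- versus WT, beside 3.73% and 0.874% of all genes. Fits of only the groups compared gave 12 calls for Dnm2 S619L/+ versus WT, 29 for Bin1 mck-/- versus WT and 0 for both tamoxifen in Dnm2 S619L/+ and tamoxifen Bin1 mck-/- versus WT. In the same order, these fits called 20.2%, 10.1%, 0.21% and 0.847% of all genes. DESeq2 called 31 for Bin1 mck-/- versus WT, 1 for the interaction, 5 for tamoxifen in Bin1 mck-/-, 6 for tamoxifen Bin1 mck-/- versus WT and 2 for the difference of tamoxifen effects. Its shares of all genes were 8.05%, 2.12%, 8.43%, 3.68% and 9.38% in the same order. The cause of these shifts was not tested. With the replicate block, 11 members were called for Dnm2 S619L/+ versus WT and 0 for tamoxifen in Dnm2 S619L/+, beside 18.4% and 5.46% of all genes. The numbers only name the mice: deviations of same-numbered mice correlated between −0.325 and 0.335 in the Dnm2 cohort and between −0.175 and 0.149 in the Bin1 cohort, and some pairs deviated in opposite directions.

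Leaving out each mouse in turn gave 4 to 31 calls for Dnm2 S619L/+ versus WT (lowest without placebo Dnm2 S619L/+ mouse 4, highest without mouse 3), 14 to 26 for tamoxifen in WT (lowest without tamoxifen WT mouse 2), 0 to 2 for tamoxifen in Dnm2 S619L/+, 10 to 27 for tamoxifen Dnm2 S619L/+ versus WT (highest without tamoxifen mouse 4), 0 to 2 for the interaction, 0 to 20 for Bin1 mck-/- versus WT (lowest without WT mouse 8, highest without Bin1 mck-/- mouse 3), 0 to 3 for tamoxifen in Bin1 mck-/-, 0 to 4 for tamoxifen Bin1 mck-/- versus WT, 0 for the difference of disease effects and 0 to 3 for that of tamoxifen effects. Calls over all genes moved in these fits as well. In the order given, they were 13 to 24.2%, 17.7 to 27.1%, 2.35 to 16.4%, 18.9 to 35.1% and 0.0064 to 1.87% for the Dnm2 cohort. For the Bin1 cohort they were 0.119 to 4.81%, 1.05 to 8.3% and 0.277 to 1.75%, and for the differences 0.0795 to 0.943% and 0.0367 to 13.5%. Over 81 pairs of a named member and a comparison, 944 of 1154 alternative fits left direction and call as they were, 187 lost the call and 22 gained one. In 1 fit the direction turned: the *Ptprc* log2 fold change of tamoxifen in Dnm2 S619L/+, which ranged from −1.20 to 0.70 over the mice left out, was 0.70 without placebo mouse 4. Of the T and NK cell genes, 4 of 5 were too low to be tested at these depths.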
